A study of Mus musculus with 14 samples.

Results

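The genes described here are 37 genes of the hypoxia response and of glycolysis, out of 21734 genes with a symbol on the array. They were named by their textbook roles, with earlier results of these data known, and found in the symbol column of the authors' deposited table. Their shares beside those of all genes are therefore descriptions and not tests. A list of 38 names was given, of which Pkm and Pkm2 are the same gene. Each gene was represented by its brightest probe set. Their levels were read as log2 intensity on Affymetrix Mouse Gene 1.0 ST arrays in 14 samples of sorted limb cells from C57BL/6 mouse embryos at embryonic day 16.5. Every gate required CD9, a tetraspanin, and the sorted cells were called osteochondroprogenitors (OCP), meaning skeletal precursors able to form cartilage and bone. OCP4 (4 arrays) carried both CD73 and Thy1, OCP1 (3 arrays) only CD73, OCP3 (4 arrays) only Thy1 and OCP2 (3 arrays) neither, where CD73 is the surface enzyme that makes adenosine from AMP and Thy1 is a surface glycoprotein of mesenchymal cells. No genotype or treatment differed between the groups, the limbs of all of them had been digested with collagenase and dispase, and the labels do not say whether replicates came from separate embryos or litters. P-values here thus reflect how far these samples spread, and that spread could be technical.

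When oxygen is scarce, prolyl hydroxylases such as those encoded by Egln1 and Egln3 stop marking the HIF alpha subunits (encoded by Hif1a and Epas1) for breakdown, and the stabilised proteins bind DNA with a partner and raise the transcription of glucose transporters, glycolytic enzymes, angiogenic factors and pH regulators. The level of Hif1a and Epas1 RNA is therefore not a measure of HIF activity. Growth plate cartilage has no blood vessels, and HIF signalling and glycolysis are known to be needed for the survival and matrix production of its chondrocytes.

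The gates were visible in the RNA. Nt5e, which encodes CD73, lay between 12.17 and 13.37 log2 units on the CD73+ arrays and between 8.91 and 9.88 on the CD73- arrays, and Thy1 between 12.44 and 13.27 on the Thy1+ arrays and between 9.19 and 9.87 on the Thy1- arrays. The markers of cell types differed between the groups as well. The mean log2 level of 14 cartilage matrix markers per array was 10.26 to 10.95 in OCP4, 12.57 to 12.85 in OCP1, 9.97 to 10.54 in OCP3 and 11.65 to 11.97 in OCP2, so OCP1 stood highest with no overlap. That of 10 pericyte and smooth muscle markers was 10.64 to 11.05 in OCP4, 10.55 to 10.93 in OCP1, 12.75 to 12.97 in OCP3 and 11.37 to 11.54 in OCP2, so OCP3 stood highest. No array stood apart from its group over all genes: Pearson correlations over genes ran from 0.9955 to 0.9979 within groups and from 0.9843 to 0.9945 between them.

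Most of the 37 genes differed somewhere among the groups, and OCP1 was the group in which most of them were highest. By limma's moderated F-test with Benjamini-Hochberg adjustment over all genes, at a threshold of 0.05, 29 of 37 differed, against 39.5% of all 21734 genes. Among the 10867 genes at or above the median level, 63.7% were called, and 27 of the 32 members in that set (84.4%). Group means were highest in OCP1 for 24 members, against 25.5% of all genes. They were highest in OCP3 for 5 (all genes 19.2%), in OCP4 for 4 (32.2%) and in OCP2 for 4 (23.1%). They were lowest in OCP4 for 22 members, against 23.6% of all genes. In OCP3 they were lowest for 12, which is near the share of all genes (33.8%). The range of the 4 group means had a median of 0.385 log2 units over the members and 0.209 over all genes. It was at least 1 log2 unit, a 2-fold range, for 5.15% of all genes and for 7 members: Epas1, Car12, Car9, Pfkp, Bnip3, Aldoc and Slc2a3. In bulk samples such as these, fewer cells of a type and less RNA per cell cannot be told apart.

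**Figure D1:**
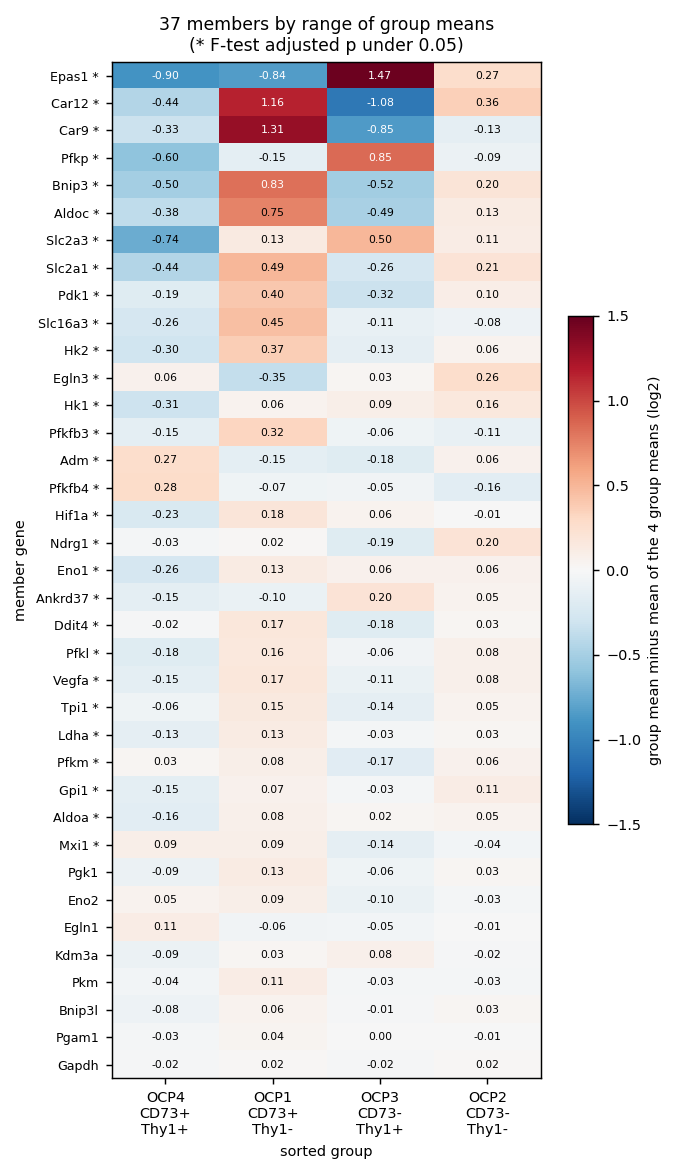
Group means of the 37 genes (rows, ordered by the range of the group means) in the 4 sorted groups (columns), each as the log2 difference from the mean of the 4 group means, with red for higher and blue for lower. A star marks an F-test adjusted p under 0.05. OCP1 is red for most of the upper rows, while Epas1, Pfkp and Slc2a3 are red in OCP3, and the rows at the bottom, down to Gapdh, are near white.

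The promoters of members that shared a pattern are printed because HIF binds a short core that reads ACGTG or GCGTG. For each gene, the table of RefSeq promoters (build GRCm38.p6) gives a window from 250 bases before to 50 bases after the transcription start, and 33 of 37 members matched a window by symbol. ACGTG or GCGTG was found on either strand in the first listed window of 24 of these 33 (72.7%), against 51.3% of the 14356 tested genes with a window, and ACGTG alone in 17 (51.5%), against 21.6%. The 250 bases upstream of the start are shown 5′ to 3′ along the gene, with each match to the core in capitals (as CACGT or CACGC where it lies on the other strand). The first 5 belong to members that were highest in OCP1 and lower in both Thy1+ groups, and the last to the member with the second largest difference between the Thy1+ groups, Pfkp, which was highest in OCP3.
Car9: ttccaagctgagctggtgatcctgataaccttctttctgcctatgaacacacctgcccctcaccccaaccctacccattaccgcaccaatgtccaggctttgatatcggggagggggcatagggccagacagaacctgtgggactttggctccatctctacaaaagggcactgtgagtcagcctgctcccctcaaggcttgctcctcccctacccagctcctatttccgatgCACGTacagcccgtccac
Bnip3: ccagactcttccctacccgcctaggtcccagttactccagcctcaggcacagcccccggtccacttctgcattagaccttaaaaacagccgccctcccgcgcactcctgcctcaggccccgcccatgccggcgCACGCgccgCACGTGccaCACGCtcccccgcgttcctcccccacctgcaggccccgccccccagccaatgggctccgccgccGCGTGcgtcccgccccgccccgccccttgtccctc
Pdk1: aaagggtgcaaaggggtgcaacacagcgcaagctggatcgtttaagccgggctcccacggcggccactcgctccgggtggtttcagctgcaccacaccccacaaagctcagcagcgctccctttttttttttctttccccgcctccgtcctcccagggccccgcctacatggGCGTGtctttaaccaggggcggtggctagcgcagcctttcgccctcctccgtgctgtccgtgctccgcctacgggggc
Aldoc: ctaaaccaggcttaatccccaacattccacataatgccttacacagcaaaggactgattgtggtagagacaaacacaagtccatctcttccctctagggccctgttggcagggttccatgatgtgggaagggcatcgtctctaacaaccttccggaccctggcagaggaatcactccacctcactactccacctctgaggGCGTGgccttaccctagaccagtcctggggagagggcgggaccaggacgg
Car12: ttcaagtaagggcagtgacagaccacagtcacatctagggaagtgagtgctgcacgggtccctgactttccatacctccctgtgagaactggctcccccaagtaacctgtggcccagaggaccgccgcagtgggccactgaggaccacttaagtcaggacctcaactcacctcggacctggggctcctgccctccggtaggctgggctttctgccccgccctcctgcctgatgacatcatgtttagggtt
Pfkp: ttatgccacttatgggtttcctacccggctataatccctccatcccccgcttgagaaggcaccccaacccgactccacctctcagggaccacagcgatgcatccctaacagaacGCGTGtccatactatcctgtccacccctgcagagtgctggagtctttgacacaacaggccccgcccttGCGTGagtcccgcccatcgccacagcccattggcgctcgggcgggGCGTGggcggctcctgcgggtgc
These windows lie at chr4:43506776-43507025, plus strand (Car9), chr7:138909507-138909756, minus strand (Bnip3), chr2:71872974-71873223, plus strand (Pdk1), chr11:78322823-78323072, plus strand (Aldoc), chr9:66713436-66713685, plus strand (Car12) and chr13:6648772-6649021, minus strand (Pfkp). Car9 held 1 match, which began 18 bases before the start. Bnip3 held 5 matches, of which 2 are the same CACGTG read on both strands. Pdk1 and Aldoc held 1 each, Pfkp held 3 and Car12 none in these 250 bases. The printed bases of Car12 and Pfkp lie inside the annotated spans of these genes. Those spans begin at position 66712296 (Car12, plus strand) and 6649060 (Pfkp, minus strand), and the bases before these outer starts were not read. The core thus occurred in windows of members highest in OCP1 and in that of a member highest in OCP3, and a match to so short a core is a description of the letters, not a binding site.

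Among the pH regulators, the carbonic anhydrase genes Car9 and Car12, which encode enzymes of the cell surface that turn carbon dioxide into bicarbonate and protons, were highest in OCP1. Car9 had log2 intensities of 7.94, 7.93, 8.25 and 7.98 in OCP4, 9.69, 9.62 and 9.67 in OCP1, 7.76, 7.30, 7.53 and 7.43 in OCP3 and 8.20, 8.05 and 8.40 in OCP2. All OCP1 arrays lay more than 1 log2 unit above every other array. Car9 was 3.11-fold lower in OCP4 than in OCP1 (log2 difference -1.64 ± 0.11, SE, adjusted p = 6.08e-08) and 2.72-fold higher in OCP1 than in OCP2 (log2 difference 1.44 ± 0.12, SE, adjusted p = 4.21e-06). Car12 had 8.82, 8.77, 9.26 and 9.07 in OCP4, 10.60, 10.65 and 10.49 in OCP1, 8.59, 8.27, 8.17 and 8.36 in OCP3 and 9.89, 9.64 and 9.82 in OCP2. The 4 groups did not overlap in Car12, in the order OCP1, OCP2, OCP4, OCP3. It was 3.04-fold lower in OCP4 than in OCP1 (log2 difference -1.60 ± 0.12, SE, adjusted p = 1.66e-07) and 2.71-fold lower in OCP3 than in OCP2 (log2 difference -1.44 ± 0.12, SE, adjusted p = 1.17e-06).

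Of the mitophagy receptor genes, Bnip3, a classical HIF target, changed and its paralog Bnip3l did not pass the test. Bnip3 stood at 10.15, 10.34, 10.34 and 10.22 in OCP4, 11.60, 11.57 and 11.61 in OCP1, 10.31, 10.06, 10.33 and 10.28 in OCP3 and 10.97, 10.84 and 11.08 in OCP2. The OCP4 and OCP3 arrays overlapped and lay below all OCP2 arrays, which lay below all OCP1 arrays. Bnip3 was 2.52-fold lower in OCP4 than in OCP1 (log2 difference -1.33 ± 0.07, SE, adjusted p = 1.34e-08) and 1.65-fold lower in OCP3 than in OCP2 (log2 difference -0.72 ± 0.07, SE, adjusted p = 1.02e-05). Its dimmer probe set showed log2 differences of -0.89 and -0.63 in the same comparisons. Bnip3l averaged 13.37 ± 0.07 in OCP4 and 13.50 ± 0.05 in OCP1 (SD, n = 4 and 3), a difference with adjusted p = 0.0717.

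The secreted factors went different ways. Adm encodes adrenomedullin, a vasodilator peptide, and had 9.002, 9.17, 9.06 and 9.34 in OCP4, 8.86, 8.46 and 8.86 in OCP1, 8.59, 8.66, 8.87 and 8.69 in OCP3 and 9.05, 8.83 and 8.92 in OCP2. The OCP4 arrays lay above all OCP1 and OCP3 arrays and overlapped those of OCP2. Adm was 1.36-fold higher in OCP4 than in OCP3 (log2 difference 0.44 ± 0.10, SE, adjusted p = 0.00353). Vegfa, the main angiogenic growth factor gene, averaged 11.67 ± 0.03 in OCP4, 11.99 ± 0.11 in OCP1, 11.71 ± 0.05 in OCP3 and 11.90 ± 0.05 in OCP2 (SD, n = 4, 3, 4 and 3), and was 1.24-fold lower in OCP4 than in OCP1 (log2 difference -0.32 ± 0.05, SE, adjusted p = 0.000492).

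The glucose transporter genes Slc2a1 and Slc2a3, which encode GLUT1 and GLUT3, were highest in different groups. Slc2a1 had 12.08, 12.13, 12.32 and 12.16 in OCP4, 13.23, 13.16 and 12.94 in OCP1, 12.34, 12.45, 12.40 and 12.25 in OCP3 and 12.99, 12.69 and 12.80 in OCP2. The Thy1+ arrays all lay below the Thy1- arrays. Slc2a1 was 1.91-fold lower in OCP4 than in OCP1 (log2 difference -0.94 ± 0.09, SE, adjusted p = 1.49e-06) and 1.38-fold lower in OCP3 than in OCP2 (log2 difference -0.47 ± 0.09, SE, adjusted p = 0.00169). Slc2a3 had 9.13, 9.11, 9.46 and 8.92 in OCP4, 10.07, 10.02 and 9.997 in OCP1, 10.37, 10.62, 10.33 and 10.24 in OCP3 and 10.14, 9.89 and 9.98 in OCP2. The OCP3 arrays were the highest and the OCP4 arrays the lowest, with OCP1 and OCP2 overlapping between them. Slc2a3 was 2.35-fold lower in OCP4 than in OCP3 (log2 difference -1.23 ± 0.10, SE, adjusted p = 4.38e-07). The gene of the lactate exporter MCT4, Slc16a3, averaged 11.08 ± 0.10 in OCP4, 11.79 ± 0.09 in OCP1, 11.23 ± 0.09 in OCP3 and 11.26 ± 0.12 in OCP2 (SD, n = 4, 3, 4 and 3), and was 1.63-fold lower in OCP4 than in OCP1 (log2 difference -0.70 ± 0.08, SE, adjusted p = 6.75e-06).

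All 11 genes of the upper part of glycolysis, from hexokinase to triose phosphate isomerase, passed the F-test, against 39.5% of all genes. Among genes at or above the median level that share was 63.7%. Isoforms of the same enzyme differed in pattern. Pfkp, the platelet-type phosphofructokinase, had 8.70, 9.14, 9.10 and 8.89 in OCP4, 9.60, 9.33 and 9.30 in OCP1, 10.22, 10.66, 10.43 and 10.31 in OCP3 and 9.57, 9.40 and 9.42 in OCP2. It was high in OCP3 and low in OCP4, with no overlap with the other groups, and was 2.73-fold lower in OCP4 than in OCP3 (log2 difference -1.45 ± 0.11, SE, adjusted p = 1.6e-07). The liver type, Pfkl, averaged 10.85 ± 0.08 in OCP4 and 10.98 ± 0.05 in OCP3 (SD, n = 4 each; adjusted p = 0.0834), and the muscle type, Pfkm, 11.21 ± 0.05 and 11.01 ± 0.09 in the same groups, where it was 1.15-fold higher in OCP4 (log2 difference 0.20 ± 0.05, SE, adjusted p = 0.00756). Aldoc, the aldolase isoform known from brain, had 8.13, 8.25, 8.38 and 7.91 in OCP4, 9.37, 9.48 and 9.05 in OCP1, 8.03, 8.32, 7.91 and 7.97 in OCP3 and 8.66, 8.66 and 8.71 in OCP2. OCP1 was highest and OCP2 next, without overlap, while the Thy1+ groups overlapped. Aldoc was 2.19-fold lower in OCP4 than in OCP1 (log2 difference -1.13 ± 0.12, SE, adjusted p = 7.06e-06), and the main aldolase, Aldoa, 1.18-fold lower (log2 difference -0.24 ± 0.06, SE, adjusted p = 0.00722).

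Hexokinase 2, an inducible isoform encoded by Hk2, averaged 9.40 ± 0.09 in OCP4, 10.07 ± 0.14 in OCP1, 9.56 ± 0.06 in OCP3 and 9.75 ± 0.05 in OCP2 (SD, n = 4, 3, 4 and 3). The widely expressed isoform encoded by Hk1 averaged 10.66 ± 0.04, 11.03 ± 0.03, 11.06 ± 0.05 and 11.13 ± 0.06 in the same groups. Hk2 thus had its highest mean in OCP1, and Hk1 was set apart by low values in OCP4, 1.32-fold below OCP3 (log2 difference -0.40 ± 0.04, SE, adjusted p = 5.82e-06). Pfkfb3 and Pfkfb4 encode bifunctional enzymes that set the level of the main activator of phosphofructokinase. Pfkfb3 averaged 9.35 ± 0.09, 9.82 ± 0.12, 9.43 ± 0.01 and 9.38 ± 0.06, and Pfkfb4 9.23 ± 0.06, 8.88 ± 0.04, 8.90 ± 0.12 and 8.79 ± 0.09, again in OCP4, OCP1, OCP3 and OCP2. Between OCP4 and OCP1 they changed in opposite directions, Pfkfb3 being 1.39-fold lower (adjusted p = 4.79e-05) and Pfkfb4 1.27-fold higher (adjusted p = 0.00121) in OCP4. Gpi1, glucose phosphate isomerase, and Tpi1, triose phosphate isomerase, had ranges of group means of 0.25 and 0.29 log2 units.

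The lower part of glycolysis varied little. Of 6 genes, only Eno1, which encodes the widely expressed enolase, passed the F-test, against 39.5% of all genes. The share was 63.7% among genes at or above the median level, where these 6 genes lie. The difference between the upper and lower parts was not tested. Eno1 had 13.31, 13.47, 13.61 and 13.46 in OCP4, 13.90, 13.84 and 13.79 in OCP1, 13.72, 13.86, 13.78 and 13.77 in OCP3 and 13.85, 13.76 and 13.73 in OCP2. Every OCP4 array lay below every array of the other groups, which overlapped one another, and Eno1 was 1.25-fold lower in OCP4 than in OCP3 (log2 difference -0.32 ± 0.06, SE, adjusted p = 0.000847). All 3 Eno1 probe sets differed by -0.33 to -0.29 log2 units in that comparison. Gapdh, widely used as a loading reference, had a range of group means of 0.05 log2 units and an F-test adjusted p of 0.705. Its 35 probe sets differed between OCP4 and OCP1 by -0.06 to 0.01 log2 units, and they may include processed copies of the gene. For Pgam1 (phosphoglycerate mutase) the F-test adjusted p was 0.805, for Pkm (muscle pyruvate kinase, as Pkm2 in the file) 0.152, for Eno2 (neuronal enolase) 0.0722 and for Pgk1 (phosphoglycerate kinase) 0.0562. Gapdh, Pgk1, Pgam1 and Eno1 are genes with near-identical copies in the genome, so their values are uncertain in that respect.

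At the branch after pyruvate, Pdk1, the kinase that inhibits pyruvate dehydrogenase, had 10.15, 10.04, 10.16 and 9.99 in OCP4, 10.62, 10.79 and 10.63 in OCP1, 10.02, 9.94, 9.91 and 9.95 in OCP3 and 10.32, 10.45 and 10.36 in OCP2. The order OCP1, OCP2, then the Thy1+ groups matched that of Bnip3 and Aldoc, with no overlap of OCP1 with OCP2 or of either with the Thy1+ arrays. Pdk1 was 1.51-fold lower in OCP4 than in OCP1 (log2 difference -0.59 ± 0.06, SE, adjusted p = 3.68e-06) and 1.34-fold lower in OCP3 than in OCP2 (log2 difference -0.42 ± 0.06, SE, adjusted p = 0.000184). Ldha, the lactate dehydrogenase subunit that favours lactate production, averaged 13.57 ± 0.05 in OCP4, 13.83 ± 0.03 in OCP1, 13.68 ± 0.08 in OCP3 and 13.74 ± 0.02 in OCP2 (SD, n = 4, 3, 4 and 3) and was 1.20-fold lower in OCP4 than in OCP1 (log2 difference -0.26 ± 0.05, SE, adjusted p = 0.00128).

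Of the oxygen sensors, Egln3, which encodes the prolyl hydroxylase PHD3 and is itself a HIF target, was lowest in the group where most other members were highest. Egln3 had 10.78, 10.88, 10.61 and 10.77 in OCP4, 10.28, 10.29 and 10.47 in OCP1, 10.72, 10.80, 10.60 and 10.81 in OCP3 and 10.80, 11.05 and 11.04 in OCP2. All OCP1 arrays lay below all others, and Egln3 was 1.53-fold lower in OCP1 than in OCP2 (log2 difference -0.62 ± 0.09, SE, adjusted p = 0.000425). Egln1, which encodes PHD2, had group means of 11.20 to 11.37 and an F-test adjusted p of 0.0631.

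The genes of the HIF alpha subunits had different patterns. Epas1, which encodes HIF-2 alpha and is known to be abundant in endothelial cells and pericytes, had 9.31, 9.61, 9.72 and 9.42 in OCP4, 9.62, 9.59 and 9.52 in OCP1, 11.79, 12.08, 11.82 and 11.87 in OCP3 and 11.02, 10.67 and 10.35 in OCP2. OCP3 was highest and OCP2 next, without overlap, while both CD73+ groups lay below and overlapped. Epas1 was 5.19-fold lower in OCP4 than in OCP3 (log2 difference -2.38 ± 0.12, SE, adjusted p = 3.34e-09) and 2.15-fold lower in OCP1 than in OCP2 (log2 difference -1.10 ± 0.14, SE, adjusted p = 0.000176). The 3 OCP2 arrays spread over 0.67 log2 units, more than those of any other group. Hif1a had 12.72, 12.67, 12.71 and 12.71 in OCP4, 13.11, 13.13 and 13.09 in OCP1, 13.06, 12.93, 12.99 and 12.97 in OCP3 and 12.85, 12.90 and 13.03 in OCP2. The OCP4 arrays were the lowest and the OCP1 arrays the highest, and Hif1a was 1.33-fold lower in OCP4 than in OCP1 (log2 difference -0.41 ± 0.05, SE, adjusted p = 2.33e-05).

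**Figure D2:**
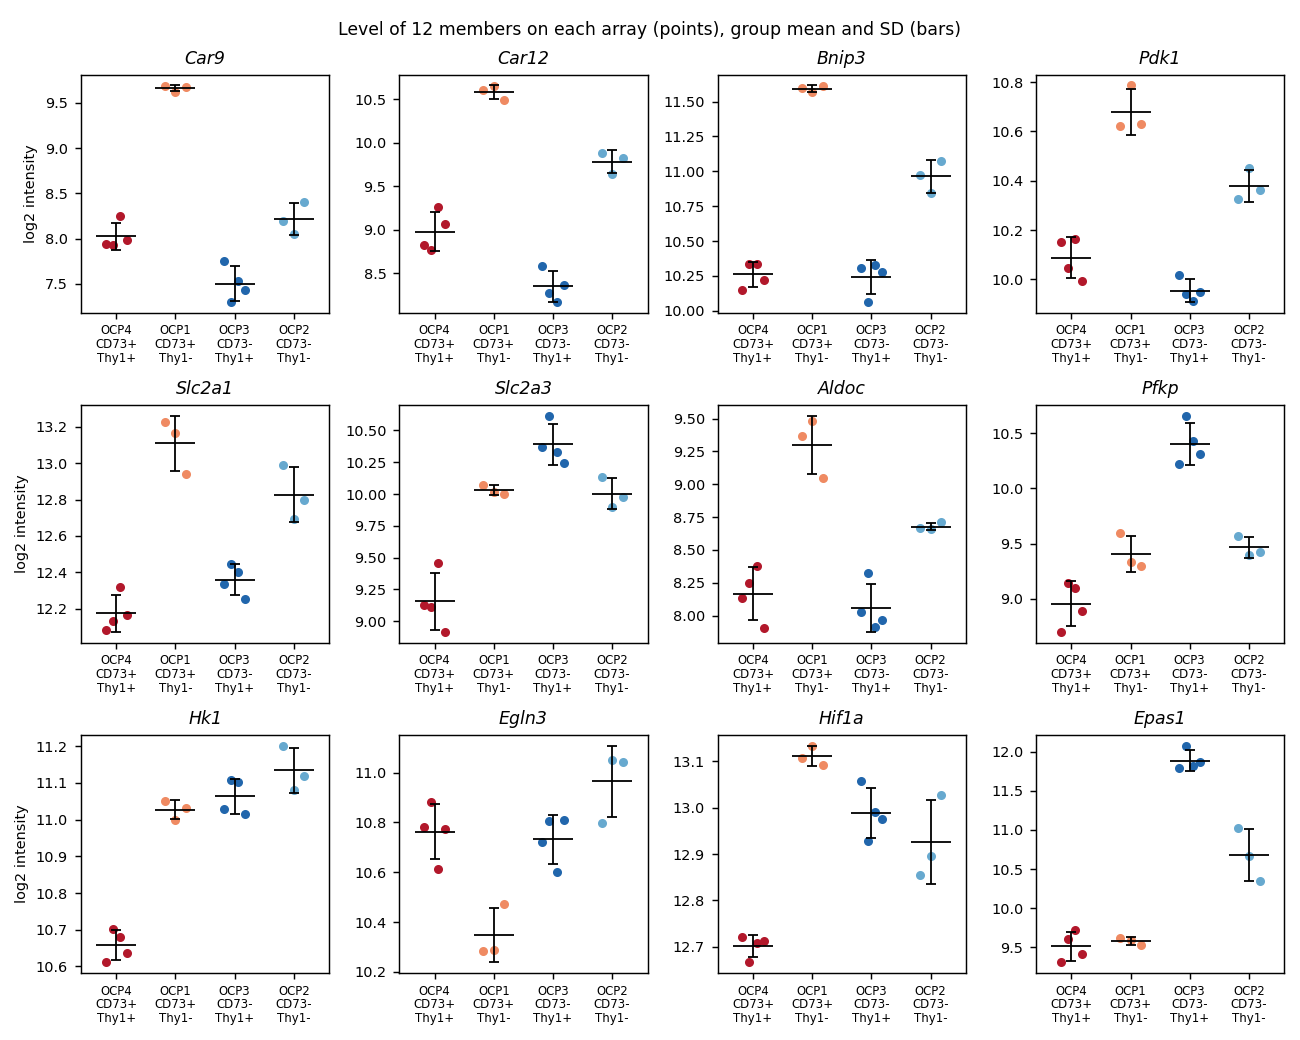
Log2 intensity (y axes, each on its own scale) of 12 of the 37 genes on every array (points) in the 4 sorted groups (x axes), with the group mean and SD (bars, n = 4, 3, 4 and 3 from left to right). Car9, Car12, Bnip3, Pdk1, Slc2a1 and Aldoc are highest in OCP1, Slc2a3, Pfkp and Epas1 in OCP3, and Egln3 is lowest in OCP1.

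Among the other hypoxia-induced genes, Ndrg1, which encodes a stress-response protein of the NDRG family, had 11.76, 11.91, 11.86 and 11.84 in OCP4, 11.89, 11.86 and 11.93 in OCP1, 11.72, 11.70, 11.71 and 11.63 in OCP3 and 12.12, 12.08 and 12.02 in OCP2. OCP3 was lowest and OCP2 highest, with OCP4 and OCP1 overlapping between them, and Ndrg1 was 1.31-fold lower in OCP3 than in OCP2 (log2 difference -0.39 ± 0.05, SE, adjusted p = 6.69e-05). Ddit4, an inhibitor of mTOR signalling, averaged 10.91 ± 0.02 in OCP1 (SD, n = 3) and 10.57 ± 0.08 in OCP3 (SD, n = 4; log2 difference 0.34 ± 0.06, SE, adjusted p = 0.00112). Mxi1, a MYC antagonist, averaged 10.20 ± 0.04 in OCP4 and 9.98 ± 0.06 in OCP3 (SD, n = 4 each; log2 difference 0.22 ± 0.05, SE, adjusted p = 0.00166), and its dimmer probe set differed by 0.37. The ankyrin repeat gene Ankrd37 averaged 8.17 ± 0.10 in OCP4 and 8.52 ± 0.07 in OCP3 (SD, n = 4 each; log2 difference -0.35 ± 0.08, SE, adjusted p = 0.00437). Kdm3a, a histone demethylase gene, had an F-test adjusted p of 0.119.

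Thy1+ was compared with Thy1- among CD73+ cells (OCP4 minus OCP1), and most of these genes were lower in OCP4. Of 37 members, 22 were lower and 4 higher, against 12.4% and 13.8% of all genes, and 26 changed in either direction against 26.3%. Among genes at or above the median level, 24 of 32 members (75%) and 45% of genes were called. The median log2 difference was -0.217 over the members and 0.0107 over all genes. Lower were both carbonic anhydrases, all 3 transporters, 9 of 11 upper glycolysis genes, 2 of 6 lower glycolysis genes, Bnip3, Vegfa, Ldha, Pdk1, Ddit4 and Hif1a. Higher were Adm (1.33-fold), Egln3 (1.33-fold), Pfkfb4 and Egln1 (1.12-fold). In the same comparison all 14 cartilage matrix markers and 7 of 9 hypertrophic chondrocyte markers were lower in OCP4, with Comp, a cartilage matrix protein, 6.99-fold lower and Col10a1, the collagen of hypertrophic cartilage, 5.27-fold lower. The other hypertrophic marker called, Pth1r, was 1.92-fold higher. Of the other lists, the osteoblast list had 5 of 10 markers lower and 1 higher. The endothelial list had 6 of 14 higher in OCP4 and 1 lower, with Sox18 4.25-fold and Cdh5 1.64-fold higher, and pericyte and smooth muscle markers were higher in 4 of 10 and lower in 1. Of 14 cell cycle genes, 13 were higher. The part of these cells and states in the result was not tested. The calls for Egln1 (adjusted p up to 0.108) and Ddit4 (up to 0.117) ended when any OCP1 array, OCP3 replicate 3 or 4, or OCP4 replicate 2 or 4 was left out, that for Egln1 also without OCP2 replicate 2 and that for Ddit4 without OCP2 replicate 3 or OCP4 replicate 1, that for Pgk1 without OCP1 replicate 2, OCP4 replicate 1 or OCP4 replicate 4 (up to 0.102), that for Pfkp without OCP1 replicate 1 (0.0715) and that for Adm without OCP1 replicate 2 (0.0559). The Pgk1 call also ended with arrays centred on their medians (0.0507).

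Among CD73- cells (OCP3 minus OCP2), 11 members were lower and 3 higher in the Thy1+ group, against 9.48% and 6.63% of all genes (14 in all, against 16.1%). Among genes at or above the median level, 15 of 32 members (46.9%) and 28% of genes were called. The members lower in OCP3 were Car9 (1.64-fold), Car12, Bnip3, Slc2a1, Aldoc (1.54-fold), Pdk1, Ndrg1, Pfkm, Ddit4, Tpi1 and Vegfa, and those higher were Epas1 (2.31-fold), Pfkp (1.92-fold) and Slc2a3 (1.31-fold). None of the 6 lower glycolysis genes passed the test, and 6 genes are too few to set closely against the 16.1% of all genes. All 14 cartilage matrix markers were lower and 8 of 10 pericyte and smooth muscle markers higher in OCP3. Hypertrophic chondrocyte markers, unlike the cartilage matrix list, had 6 of 9 members higher in OCP3 and 2 lower, with Mmp13 7.46-fold higher and Col10a1 2.21-fold lower. Of 10 osteoblast markers, 4 were higher and 1 lower. Of 11 skeletal muscle markers, 7 were lower and 1 higher, with endothelial markers lower in 6 of 14 and higher in 1, and adipocyte markers lower in 6 of 8. The part of all these lists in the result was not tested. In both Thy1 comparisons, 9 members were lower in Thy1+ cells: Car9, Car12, Bnip3, Vegfa, Slc2a1, Aldoc, Tpi1, Pdk1 and Ddit4. These comparisons share no arrays in their group means, but their tests share the estimate of spread from all 14 arrays. The share of all genes lower in both was not computed, and all 14 cartilage matrix markers were lower in both. Slc2a3 and Pfkp were higher in OCP3 than in OCP2 and lower in OCP4 than in OCP1. Left-out arrays ended the calls for Ddit4 (without OCP4 replicates 1 or 4, any OCP1 array, OCP3 replicates 1, 3 or 4, or OCP2 replicates 1 or 3, adjusted p up to 0.203), Vegfa (without OCP3 replicates 2, 3 or 4 or OCP2 replicates 2 or 3, up to 0.12), Slc2a3 (without OCP3 replicates 1 or 2 or OCP2 replicates 2 or 3, up to 0.112) and Tpi1 (without OCP3 replicates 1, 3 or 4 or any OCP2 array, up to 0.1). The Pfkm call ended with only the arrays of OCP3 and OCP2 in the fit (0.0527).

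**Figure D3:**
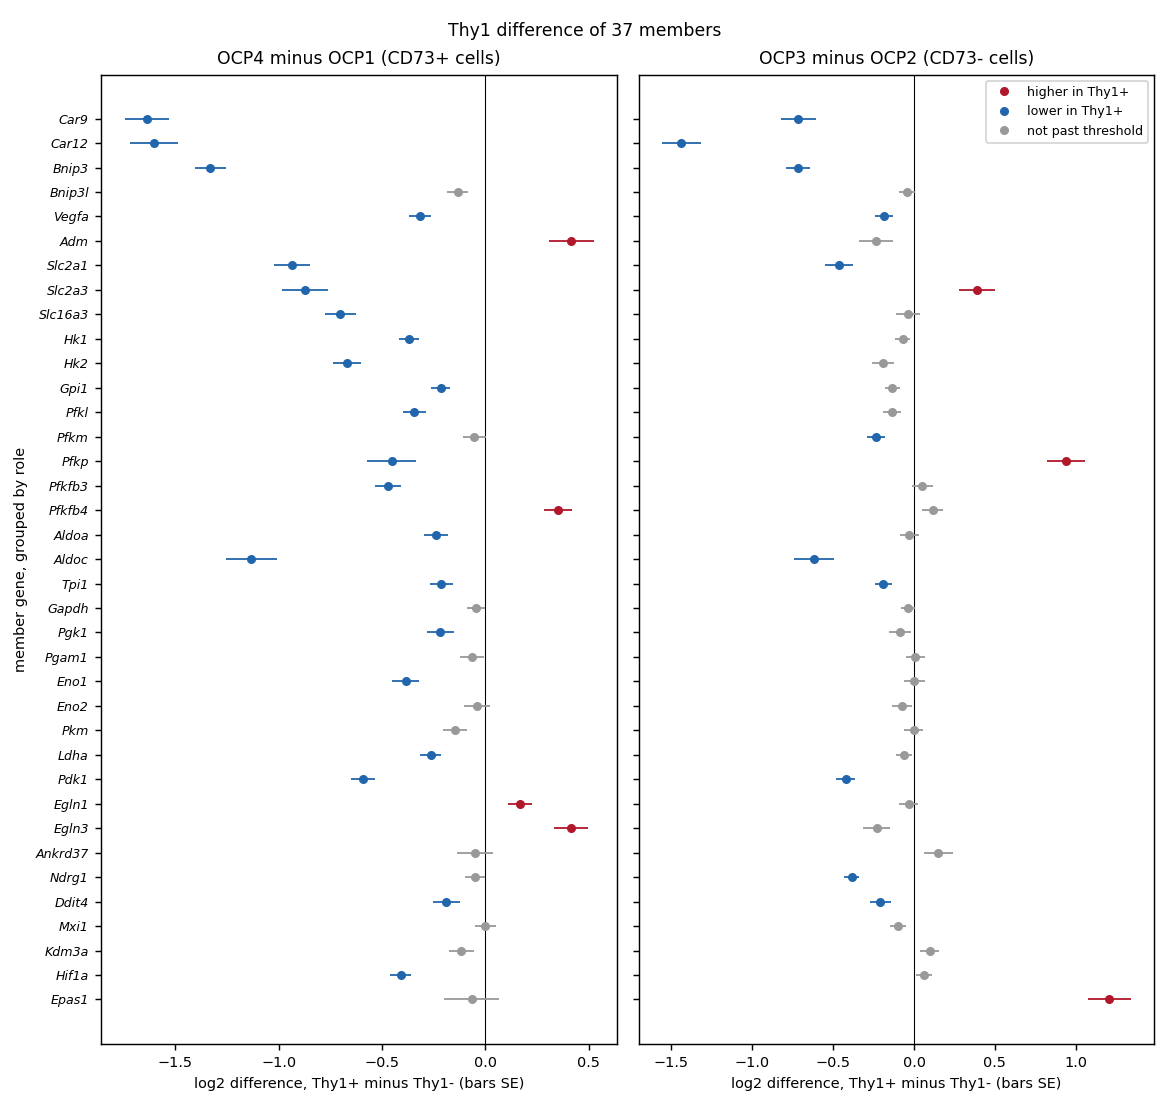
Log2 difference of Thy1+ minus Thy1- cells for the 37 genes (rows, grouped by role) in CD73+ cells (left, OCP4 minus OCP1) and CD73- cells (right, OCP3 minus OCP2), with SE as bars and colours for adjusted p under 0.05. In the left panel 22 genes are lower and 4 higher, and in the right panel 11 are lower and 3 higher.

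With Thy1 absent from both groups, the CD73 comparison was OCP1 minus OCP2. Of the members 9 were higher and 3 lower in OCP1, against 4.43% and 6.56% of all genes (12 in all, against 11.0%), and among genes at or above the median level 11 of 32 members (34.4%) and 22% of genes were called. Higher were Car9, Car12 (1.74-fold), Bnip3 (1.55-fold), Aldoc (1.54-fold), Slc16a3 (1.44-fold), Pfkfb3 (1.36-fold), Hk2 (1.24-fold), Pdk1 (1.23-fold) and Hif1a (1.14-fold), and lower were Epas1, Egln3 and Ndrg1 (1.13-fold). Slc2a1 was not called (log2 difference 0.28 ± 0.09, SE, adjusted p = 0.0672). Cartilage matrix markers were higher in OCP1 in 12 of 14 cases and hypertrophic markers in 9 of 9, while endothelial markers were lower in 12 of 14 and higher in 1, and pericyte markers lower in 6 of 10 and higher in 1. Of 10 osteoblast markers, 6 were higher and 1 lower, with Schwann and nerve markers lower in 9 of 10, skeletal muscle markers lower in 6 of 11 and cell cycle genes lower in 4 of 14. The part of these lists in the result was not tested. The calls for Hif1a and Ndrg1 were lost without any of several arrays, among them every OCP1 array and OCP2 replicates 1 and 2, and also OCP3 replicate 3 and OCP4 replicates 3 and 4 (adjusted p up to 0.138 and 0.117), and that for Hif1a also without OCP3 replicate 4 or OCP4 replicate 1. The Hk2 call was lost without OCP1 replicate 1 or OCP2 replicate 2 (up to 0.0633).

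Among Thy1+ cells (OCP4 minus OCP3), 8 members were higher and 10 lower in OCP4, against 14.2% and 13.6% of all genes (18 in all, against 27.8%), and among genes at or above the median level 19 of 32 members (59.4%) and 45.4% of genes were called. The largest differences were the lower levels of Epas1, Pfkp and Slc2a3 in OCP4. Hk1 (1.32-fold), Ankrd37 (1.28-fold), Eno1, Hif1a (1.22-fold), Aldoa (1.13-fold), Kdm3a (1.12-fold) and Gpi1 (1.09-fold) were also lower. Those higher in OCP4 were Car12 (1.55-fold), Car9 (1.43-fold), Adm, Pfkfb4 (1.26-fold), Mxi1, Pfkm, Egln1 (1.12-fold) and Ndrg1 (1.11-fold). All 10 pericyte and smooth muscle markers were lower in OCP4, among them Rgs5 (13.5-fold), and so were 9 of 10 Schwann and nerve markers and 6 of 14 endothelial ones, with 2 higher. All 9 hypertrophic chondrocyte markers changed, 3 higher and 6 lower in OCP4, with Col10a1 5.27-fold higher and Alpl 3.79-fold lower. Of 14 cartilage matrix markers, 5 were higher and 2 lower, with osteoblast markers lower in 5 of 10 and higher in 2, cell cycle genes higher in 8 of 14 and haematopoietic markers higher in 4 of 10. The part of these lists in the result was not tested. Left-out arrays ended the calls for Gpi1 (without OCP4 replicates 1, 2 or 4, any OCP1 array, OCP3 replicates 2, 3 or 4, or OCP2 replicates 2 or 3, adjusted p up to 0.108), Kdm3a (without OCP4 replicates 2, 3 or 4 or OCP3 replicates 1, 3 or 4, up to 0.121), Egln1 (without OCP4 replicates 2 or 4 or any OCP3 array, up to 0.112), Aldoa (without OCP4 replicates 1 or 4 or OCP3 replicates 2 or 4, up to 0.0731) and Ndrg1 (without OCP4 replicate 2 or OCP3 replicate 4, up to 0.0646). The calls for Gpi1 and Kdm3a also ended with arrays centred on their medians (0.115 and 0.0740).

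The CD73 difference depended on Thy1 for 15 members by the test of the interaction, (OCP4 minus OCP3) minus (OCP1 minus OCP2), with 3 positive and 12 negative, against 9.96% and 8.05% of all genes. Car9 and Car12 were higher and Epas1 was lower in CD73+ cells in both CD73 comparisons, which share no arrays. The share of all genes called in the same direction in both was not computed. For Car12 the interaction was not called (log2 difference -0.17 ± 0.17, SE, adjusted p = 0.57). The Car9 and Epas1 differences differed in size (-0.92 ± 0.15 and -1.27 ± 0.19, SE). Hif1a was higher in CD73+ cells without Thy1 and lower in CD73+ cells with Thy1, and Ndrg1 the reverse, with interactions of -0.47 ± 0.07 (adjusted p = 0.000303) and 0.33 ± 0.07 (adjusted p = 0.00347).

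**Figure D4:**
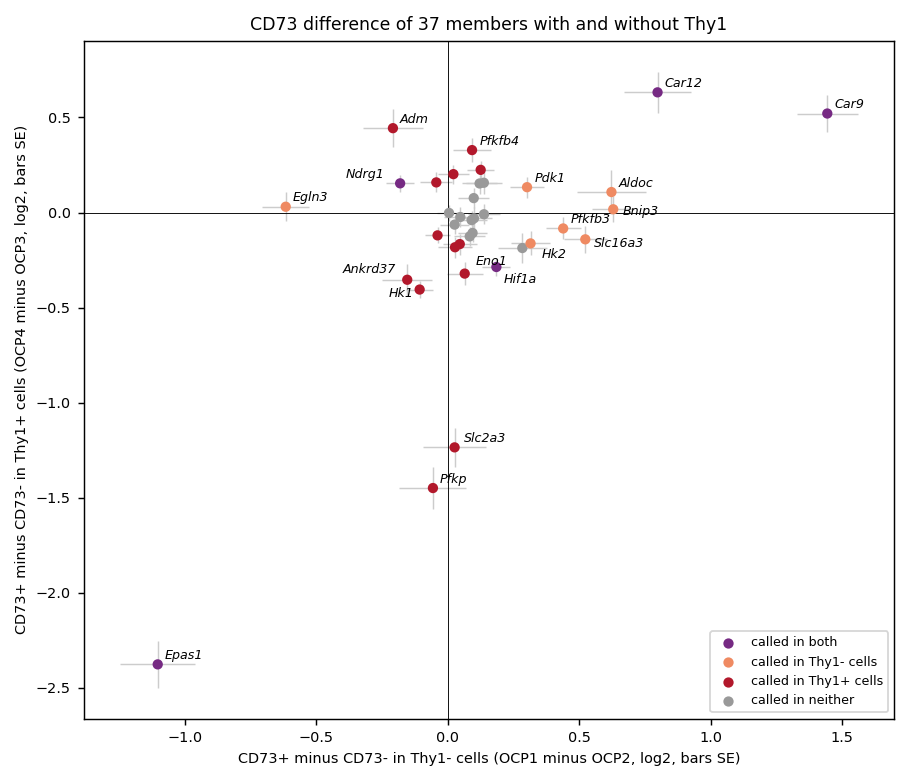
Log2 difference of CD73+ minus CD73- cells for the 37 genes in Thy1- cells (x axis, OCP1 minus OCP2) and in Thy1+ cells (y axis, OCP4 minus OCP3), with SE as bars and colours for the comparisons in which adjusted p was under 0.05. Car9 and Car12 lie at the upper right and Epas1 at the lower left, while Pfkp and Slc2a3 differ in the Thy1+ cells and have x values near 0.

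The diagonal comparisons share arrays with those above and are given for completeness. In OCP4 against OCP2, 18 members were lower and 1, Pfkfb4 (1.36-fold), was higher, against 13.8% and 10.4% of all genes (19 in all, against 24.2%), with Epas1 (-1.17), Slc2a3 (-0.85) and Car12 (-0.81) at the largest log2 differences. Among genes at or above the median level, 18 of 32 members (56.2%) and 38.9% of genes were called there. The calls for Ldha (OCP4 replicates 2 or 4 or any OCP2 array, adjusted p up to 0.0806) and Aldoa (OCP4 replicate 4 or OCP2 replicate 2, up to 0.0708) were lost without those arrays. In OCP1 against OCP3, 18 were higher and 5 lower, against 11.9% and 12.5% (23 in all, against 24.4%). At or above the median level, 23 of 32 members (71.9%) and 41.9% of genes were called. Car12 (2.24), Car9 (2.16), Bnip3 (1.35) and Aldoc (1.24) were the highest and Epas1 (-2.31) and Pfkp (-0.997) the lowest on the log2 scale. The calls for Ldha (each OCP1 array, OCP3 replicates 1, 3 or 4, or OCP2 replicate 3, up to 0.118), Eno2 (each OCP1 array or OCP3 replicate 4, up to 0.118), Slc2a3 (each OCP1 array or OCP3 replicates 1 or 2, up to 0.0851) and Ankrd37 (OCP1 replicate 3, 0.113) were lost without those arrays.

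Another 36 hypoxia targets and HIF regulators were read beside the members. Of these, 63.9% were called in OCP4 against OCP1, 61.1% in OCP4 against OCP3, 33.3% in OCP3 against OCP2 and 36.1% in OCP1 against OCP2, while 26.3%, 27.8%, 16.1% and 11.0% of all genes were called in the same order. In OCP4 against OCP1, 9 were higher and 14 lower: Ak4, a mitochondrial adenylate kinase (2.96-fold), Tfrc, the transferrin receptor (2.12-fold), and Plod2, a collagen lysyl hydroxylase (2.09-fold), were lower, and Cxcr4, a chemokine receptor (2.05-fold), was higher in OCP4. In OCP4 against OCP3, 12 were higher and 10 lower, with Cox4i2, an alternative subunit of cytochrome c oxidase (3.83-fold), and the clock-related repressor Bhlhe41 (1.76-fold) lower, and P4ha2, a collagen prolyl hydroxylase (2.74-fold), and Angptl4, a secreted lipase inhibitor (2.19-fold), higher in OCP4. In OCP3 against OCP2, 6 were higher and 6 lower, led by Cox4i2 (4.63-fold higher). In OCP1 against OCP2, 11 were higher and 2 lower, with P4ha2 (1.46-fold higher) and Cxcr4 (1.51-fold lower). The median log2 differences of the list, in that order, were -0.0373, -0.0439, -0.0508 and 0.0579, against 0.0107, 0.0377, -0.0294 and -0.0078 over all genes.

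Genes of mitochondrial metabolism and of the pentose phosphate pathway were read as well. Of 24 genes of the respiratory chain and mitochondrial biogenesis, 8 were higher and 1 lower in OCP4 than in OCP1, among them Uqcrc1 (1.43-fold) and Cox6c (1.31-fold), subunits of the respiratory chain, and Ppargc1a, a coactivator of mitochondrial biogenesis, was the lower one (1.45-fold). In OCP1 against OCP2, 0 were higher and 5 lower, in OCP4 against OCP3 3 were higher and 2 lower, and in OCP3 against OCP2 0 were higher and 2 lower. The called shares of this list were 37.5% in OCP4 against OCP1 (all genes 26.3%) and 20.8% in OCP1 against OCP2 (11.0%), and they were below those of all genes in OCP4 against OCP3 (20.8%, all genes 27.8%) and in OCP3 against OCP2 (8.33%, all genes 16.1%). Of 31 genes of pyruvate dehydrogenase and the TCA cycle, 8 were higher and 2 lower in OCP4 than in OCP1, 0 higher and 4 lower in OCP1 than in OCP2, 2 higher and 3 lower in OCP4 than in OCP3, and 0 higher and 5 lower in OCP3 than in OCP2. The 2 lower in OCP4 than in OCP1 were kinase genes of the same family as Pdk1, namely Pdk4 (1.51-fold) and Pdk2 (1.30-fold). The called share of the TCA list was above that of all genes in OCP4 against OCP1 (32.3%, all genes 26.3%). There the 8 higher genes of 31 stood against 13.8% of all genes and the 2 lower against 12.4%. It was near or below that of all genes in OCP4 against OCP3 (16.1%, all genes 27.8%), OCP3 against OCP2 (16.1%, all genes 16.1%) and OCP1 against OCP2 (12.9%, all genes 11.0%). Of 10 genes of the pentose phosphate pathway, 5 were higher and 0 lower in OCP4 than in OCP1, led by Rpia (1.42-fold), the ribose phosphate isomerase. In the other comparisons 0 were higher and 2 lower (OCP1 against OCP2), 1 higher and 2 lower (OCP4 against OCP3), and 1 higher and 0 lower (OCP3 against OCP2). With 10 genes in the list, 1 call is 10% of it, so these counts cannot be set closely against the shares of all genes.

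Of 24 further isoforms of glycolysis and lactate transport, 4 were higher and 5 lower in OCP4 than in OCP1, and 5 higher and 2 lower in OCP4 than in OCP3. Ldhb, the lactate dehydrogenase subunit that favours pyruvate production, was 1.87-fold lower in OCP4 than in OCP1 and 1.83-fold lower than in OCP3, and Hkdc1, a hexokinase domain protein, 1.63-fold and 1.95-fold higher. In OCP3 against OCP2, 1 was higher and 4 lower, and in OCP1 against OCP2 1 was higher, the transporter gene Slc2a10 (1.43-fold), and 1 lower. The called shares of this list were 37.5% (OCP4 against OCP1), 29.2% (OCP4 against OCP3), 20.8% (OCP3 against OCP2) and 8.33% (OCP1 against OCP2), of which the second and the last lie near or below those of all genes (27.8% and 11.0%).

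Markers of other cell types that limb samples can hold, and of 2 cell states, were read in the same way. Of all genes, 13.8% were higher and 12.4% lower in OCP4 than in OCP1. The shares were 4.43% higher and 6.56% lower in OCP1 against OCP2, and 6.63% higher and 9.48% lower in OCP3 against OCP2. In OCP4 against OCP3, 27.8% of all genes were called in either direction. In OCP4 against OCP1, 4 of 10 haematopoietic markers and 5 of 10 erythroid markers were higher and 0 lower, with mean log2 levels per array of 8.28 to 8.61 in OCP4 and 7.99 to 8.14 in OCP1 for the haematopoietic list, and 9.03 to 9.25 in OCP4 and 8.62 to 8.98 in OCP1 for the erythroid list. Skeletal muscle markers were lower in OCP1 than in OCP2 in 6 of 11 cases, and the array means of the list were 9.57 to 9.99 in OCP1 and 10.23 to 10.52 in OCP2. Schwann and nerve markers were lower in OCP1 than in OCP2 in 9 of 10 cases (9.11 to 9.39 in OCP1 and 10.33 to 10.65 in OCP2). Of 8 keratinocyte markers, 1 (Epcam) was lower in OCP1 than in OCP2 and in OCP3 than in OCP2, and by limma 0 changed between OCP4 and OCP1 or OCP3. Cell cycle genes had array means of 12.30 to 12.38 in OCP4 and 12.01 to 12.07 in OCP1, and dissociation stress genes were higher in OCP1 than in OCP2 in 5 of 11 cases. The array values hold no 0, so no marker can be called absent, and the part of these cells and states in the members' differences was not tested.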

How the data were processed

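Per the submitters' processing notes, the authors used RMA (background correction, quantile normalization and probe set summary) and limma; no version or annotation is named for either (not given in the sources used here). Values in the authors' table are linear intensity per probe set and array as deposited, and log2 was taken here. The planned test assumed log2 values, which this gives. A second deposited table supplied the symbols and the authors' own log2 differences and adjusted p-values. Its numbers index lines of the intensity table, and its differences matched those computed here as OCP4 minus each other group within 5e-08 log2 units over 35556 probe sets, the reverse of what its headings say. The 26 symbols turned into dates were treated as unnamed, and the brightest of several probe sets was kept, without a filter on dim genes.

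Group means were fitted over the 14 arrays together in limma 3.58.1 (R 4.3.3, and statmod 1.5.0; eBayes defaults; 10 residual degrees of freedom), using Benjamini-Hochberg adjustment over 21734 genes and a threshold of 0.05; the fit was tested on simulated data. A ± value after a level is an SD and after a difference an SE. The number of arrays limits the precision. Array medians lay between 328.1 and 346.8. The SD of the difference between replicates was 0.146 to 0.228, so no array copied another.

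Replicate numbers recur across groups, and 8 of 19 same-numbered pairs had deviations correlated above 0.1 (range -0.419 to 0.395). These values do not settle whether equal numbers mark pairs, which the labels do not say. The numbers were not taken as pairs in the main fit. Members were named in full by role where the F-test passed and the group means ranged most, 14 in all. Of each other list, up to 4 genes past the threshold with the largest differences could be named. The members and the 18 other lists were chosen with earlier results of these data known. Alternatives were the replicate block, array centring, renewed quantile normalization, the mean of all probe sets, all probe sets tested, dim genes left out, another variance prior, only the arrays compared, array weights and each array left out. Batches were not analysed here, as no label names any.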

Additional observations from a re-analysis of the deposited data

Results flagged for a closer look

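For 15 members the CD73 difference in Thy1+ cells (OCP4 minus OCP3) and that in Thy1- cells (OCP1 minus OCP2) differed by the interaction test of limma, and the values below are the first minus the second in log2 units. Transporters were all among them: Slc2a3 (-1.26, adjusted p = 6.31e-05), Slc16a3 (-0.66, adjusted p = 0.000535) and Slc2a1 (-0.47, adjusted p = 0.0153). Glycolytic genes were Pfkp (-1.39, adjusted p = 4.62e-05), Pfkfb3 (-0.52, adjusted p = 0.000757), Hk2 (-0.48, adjusted p = 0.00297), Eno1 (-0.39, adjusted p = 0.00863) and Hk1 (-0.30, adjusted p = 0.0063). The alpha subunit genes Epas1 (-1.27, adjusted p = 0.000252) and Hif1a (-0.47, adjusted p = 0.000303), the carbonic anhydrase gene Car9 (-0.92, adjusted p = 0.000633) and Bnip3 (-0.61, adjusted p = 0.00086) were negative as well. Positive were Adm (0.65, adjusted p = 0.00777), Egln3 (0.65, adjusted p = 0.00134) and Ndrg1 (0.33, adjusted p = 0.00347). For Egln3 the difference was 0.03 in Thy1+ cells and -0.62 in Thy1- cells.

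In 4 of 74 groups of 4 arrays, 1 array was far from the others, and chance gives this in about 1 of 20 groups. Car9 stood at 8.25 on OCP4 replicate 3, against 7.93 to 7.98 on the others of its group. Eno2 stood at 9.93 on OCP4 replicate 3, against 9.78 to 9.81. Mxi1 stood at 10.14 on OCP4 replicate 1, against 10.22 on each of the others. Pfkm stood at 11.15 on OCP3 replicate 2, against 10.95 to 10.98.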

How the results depend on the processing

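Under 23 alternative settings, 0 of 156 calls of a member in a comparison changed direction, 131 kept their call throughout and 25 lost it under at least 1 setting; 30 uncalled values passed under at least 1. Counts of members called stayed within 1.5 times the reported ones under all settings that gave a value. With the replicate block they were 24 for OCP4 against OCP1, 15 for OCP4 against OCP3, 12 for OCP3 against OCP2 and 10 for OCP1 against OCP2. Whether that block is a pairing of the samples is unknown. Of 14 arrays, 5 correlated best with their own number, which does not settle it, and the labels do not say. With 1 array left out in turn, the counts ran from 22 to 26, 13 to 19, 10 to 14 and 9 to 12 in the same order, from 17 to 20 for OCP4 against OCP2, 19 to 24 for OCP1 against OCP3, 15 to 16 for the interaction and 28 to 30 for the F-test. The shares of all genes called with the block or with an array left out are not given here. These counts thus do not show whether the members moved differently from other genes. Aldoa lost its F-test call without OCP4 replicate 4 (adjusted p = 0.0548). Leaving out dim genes removed Car9, Aldoc, Ankrd37, Adm and Pfkfb4, so these have no value there. Centring arrays on their medians moved the median of all genes by at most 0.0269 log2 units. The report gives the calls lost without an array. Centring also ended the calls of Hif1a, OCP1 minus OCP2 (adjusted p = 0.0705), Ddit4, OCP4 minus OCP1 (0.0872) and Ldha, OCP1 minus OCP3 (0.0506). Renewed quantile normalization ended those of Ndrg1, OCP1 minus OCP2 (0.0692), Egln1, OCP4 minus OCP1 (0.102), Gpi1, OCP4 minus OCP3 (0.0654) and Ldha, OCP1 minus OCP3 (0.0618). The cause of each loss was not tested.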
